A study of Mus musculus with 2 samples.

Results

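The cells described here are adrenal cortical cells gated for high Cyp11b1 RNA, 936 of 6904 cells that passed the quality filters in a single-cell RNA sequencing study of the male mouse adrenal cortex. Cyp11b1 encodes the 11β-hydroxylase that makes corticosterone, the main glucocorticoid of the mouse. A cell was taken when Cyp11b1 reached at least 500 CPM, where CPM is the number of the gene's unique molecular identifiers (UMIs, counted RNA molecules) per 1000000 UMIs of that cell. It also had to hold under 100 CPM of Cyp11b2, at least 2000 CPM of Malat1, under 600 CPM of Nr4a1 and Nr4a2 together and under 500 CPM of Aldh1a1. These gates set aside cells with the aldosterone synthase Cyp11b2, cells poor in the nuclear RNA Malat1, cells with an induced NR4A early response and cells high in the retinaldehyde dehydrogenase Aldh1a1. The cells were thus chosen by measured levels of these 6 genes, so those levels were not tested. The levels of Cyp11b1 and Malat1 are given below as a description.

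Both libraries belonged to 1 group, with no treatment or untreated counterpart. The donors were male mice of 15 weeks carrying SF1-Cre and Rosa mTmG, with a genotype labelled WT apart from these alleles. SF1-Cre is a Cre recombinase under control of the steroidogenic factor 1 gene and is active in steroid-producing lineages, and mTmG is a reporter that switches membrane tdTomato for membrane GFP after Cre recombination. Cells of the 26 adrenals were dissociated, and single cells negative for DAPI (live) and positive for the DNA dye Vybrant DyeCycle Ruby were sorted and put through a 10x droplet 3′ kit, with no GFP gate named. The labels give the cell type of both libraries as steroidogenic, SF1 lineage. No label says which animals went into which library, and differences between the 2 may be technical.

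The adult adrenal cortex is layered. Zona glomerulosa cells under the capsule make aldosterone under angiotensin II and potassium and are marked by WNT and hedgehog signals, among them Wnt4 and Shh. Zona fasciculata cells beneath them make glucocorticoids when pituitary ACTH binds the receptor Mc2r and raises cAMP, and they draw cholesterol from lipoproteins and from stored esters. Cells move inward from the outer cortex and change from the first type to the second during renewal of the gland, and the innermost cortex borders the medulla.

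Library 1 gave 578 of these Cyp11b1-high cells, 11.8% of its 4892 passing cells (exact Clopper-Pearson 95% interval 10.9 to 12.8%). Library 2 gave 358, 17.8% of 2012 passing cells (16.1 to 19.5%). The Cyp11b1 gate alone left 905 cells in library 1 and 523 in library 2. The Malat1 gate then removed the most, 213 and 98 cells, ahead of the Cyp11b2 gate with 78 and 34. Cells set aside by the other gates could hold as much Cyp11b1, up to 10025 CPM in library 1 and 12305 CPM in library 2. The libraries shared 4 cell barcodes, and 0 of these were Cyp11b1-high cells in either.

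Within the group Cyp11b1 spanned more than an order of magnitude. In library 1 it was 500 CPM in the lowest cell, 1132 CPM in the median cell and 7103 CPM in the highest, and in library 2 it was 501, 1720 and 9270 CPM. Library 2 thus held more cells at the upper end, with 156 of its cells at 2000 CPM or more against 117 in the larger library 1. The threshold cut through a continuous range: 77 and 18 cells lay between 500 and 600 CPM, and 68 and 29 cells lay just outside it between 400 and 500 CPM with the other gates met. The median cell held 20.5 Cyp11b1 UMIs in library 1 and 21.5 in library 2, while 2 and 21 cells were taken on 1 or 2 UMIs. The plot of Cyp11b1 by cell shows no gap at the threshold.

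**Figure D1:**
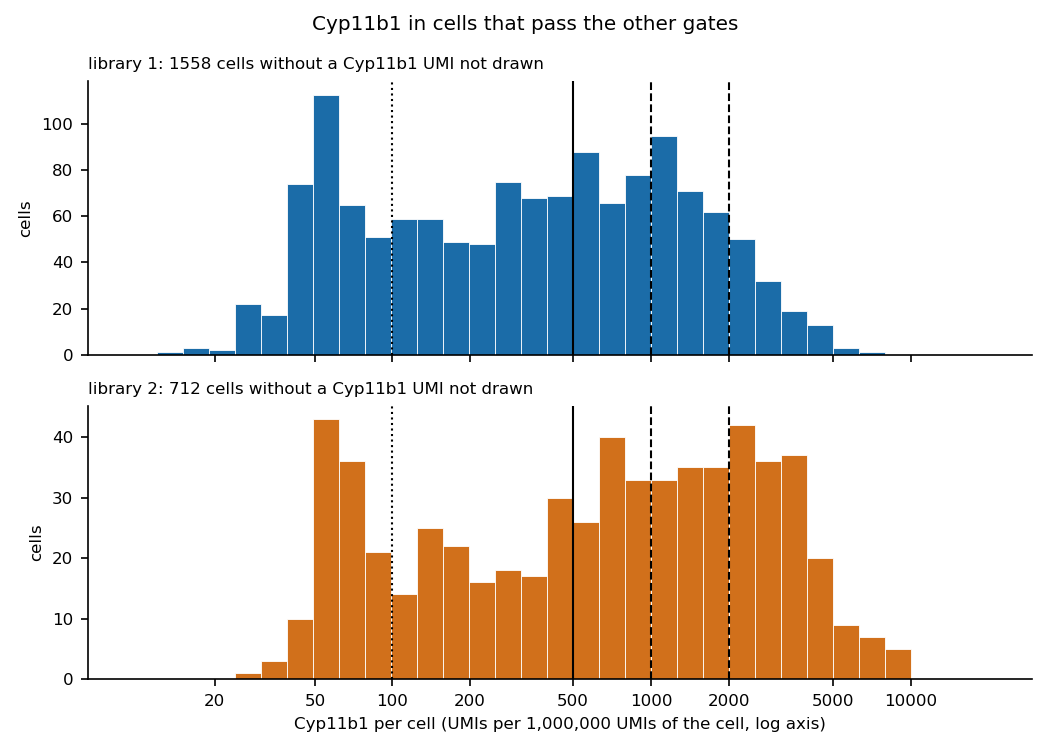
Number of cells (vertical axis) by Cyp11b1 level in UMIs per 1000000 UMIs of the cell (horizontal log axis), for cells that meet the other 4 gates, library 1 above and library 2 below. The solid line is the 500 CPM threshold of the Cyp11b1-high cells, the dashed lines at 1000 and 2000 CPM divide them into 3 bins, and the dotted line at 100 CPM bounds the low class. Cells are found on both sides of the solid line in both libraries.

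Depth was similar to that of other cells. Cyp11b1-high cells held medians of 18353.5 UMIs in library 1 and 15169.5 in library 2, and the other passing cells held 18342 and 14819.5. Low-depth cells were more common in library 2, where 53 Cyp11b1-high cells had under 5000 UMIs, against 6 in library 1. A doublet score placed 32 and 8 of them among the 197 and 37 passing cells with the highest scores, and they were kept. All counts of genes below come from edgeR quasi-likelihood tests on UMI sums per cell class and library with a library term, and a gene is called when its Benjamini-Hochberg adjusted p is under 0.05. Differences are given as log2 values with the standard error (SE) of the fit, n = 2 libraries. P-values weigh a difference against the spread left after the class and library terms, an estimate that draws largely on other genes. Residual degrees of freedom were 1 (other passing cells), 3 (classes) and 3 (bins), against median prior ones, borrowed from other genes, of 12.6, 11.3 and 21.2. A small p is thus not by itself agreement of the 2 libraries for that gene. Paralogs such as Cyp11b1 and Cyp11b2, Hsd3b1 and Hsd3b6, Mt1 and Mt2 or the haemoglobins may share reads.

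The label of zona fasciculata was set beside marker genes. The lists were chosen with earlier results of these data known, so they are not an independent check. Besides Cyp11b1, which chose the cells, the summed level of the other 5 fasciculata markers (Abca1, Hhex, Akr1b7, Mrap and Abcb1b) was 1511 CPM in library 1 and 1977 CPM in library 2, against 1094 and 889 CPM in cells that met the same gates with Cyp11b1 under 100 CPM. The sum did not set them apart from every other class: it was 1599 and 1327 CPM in cells gated for Cyp11b2 and 6332 and 9258 CPM in cells above the Aldh1a1 gate, and most of it in Cyp11b1-high cells was Akr1b7. The 9 glomerulosa markers other than Cyp11b2 still summed to 3845 and 3440 CPM in Cyp11b1-high cells, against 5556 and 6309 CPM in the low class. Thinned to 5000 UMIs per cell, which left 572 and 305 cells, Wnt4 was detected in 95.5% and 93.8% of Cyp11b1-high cells and Shh in 65.2% and 74.4%. Leukocytes of the same libraries should lack both. After the same thinning, Wnt4 was detected in 20.4% and 6.67% of leukocytes and Shh in 14.3% and 3.33%. Only 49 of 91 and 30 of 74 leukocytes reached the 5000 UMIs needed. Median depths of all leukocytes were 5206 and 4420 UMIs. The exact 95% intervals for Wnt4 were 10.2 to 34.3% and 0.818 to 22.1%. The cells therefore carried fasciculata markers together with RNA of glomerulosa genes, and they are called Cyp11b1-high cells here.

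Markers of other cell types were low apart from Nr2f2, and erythroid markers in few cells. Summed leukocyte markers reached 13.9 and 1.72 CPM in Cyp11b1-high cells, against 2.08 and 1.40 CPM in the low class, and macrophage markers 19.3 and 2.87 CPM, against 1.08 and 1.12 CPM. The low class, unlike the Cyp11b1-high cells, had been cleared of cells with 3 or more leukocyte-marker UMIs, and 3 and 1 Cyp11b1-high cells held that many. Of 8 leukocyte markers 7 and 4 had any UMI, and of 8 macrophage markers 8 and 6 did. Endothelial markers summed to 18.6 and 16.3 CPM, against 9.47 and 8.38 CPM, and chromaffin markers to 1.57 and 3.26 CPM, against 1.48 and 1.30 CPM. Capsule and stroma markers summed to 139 and 138 CPM, against 156 and 169 CPM, and the collagen gene Col1a1 was at 0 and 0.192 CPM in Cyp11b1-high cells. Most of that sum was the nuclear receptor gene Nr2f2, at 119 and 131 CPM, which had a UMI in 81.0% and 72.6% of Cyp11b1-high cells. Erythroid markers summed to 1024 and 9.58 CPM, against 139.5 and 237 CPM, with 10 cells holding 99.8% of the Hbb-bs UMIs of library 1. The results were recomputed without cells high in haemoglobin and without Cyp11b1-high cells of 3 or more leukocyte UMIs, and leaving out the cells with leukocyte UMIs ended 0 calls of named genes. The part of the other markers was not tested.

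Set against cells that met the same gates but held under 100 CPM of Cyp11b1 (1834 in library 1 and 757 in library 2, the low class), Cyp11b1-high cells had more RNA of Cyp11a1, Hsd3b1 and Cyp21a1, of Hhex and Abca1, and of genes outside steroid synthesis such as Mmd2. They had less RNA of part of the WNT, angiotensin and sterol synthesis genes and of nearly every cell cycle gene measured. Of 12248 genes tested, 1257 were higher (10.3%) and 1459 lower (11.9%), and these shares are the background for the counts of each list. Without the library term 67 calls were left, with cells thinned to 5000 UMIs 1455, and with DESeq2 1408. Of the 1408 DESeq2 calls, 1406 were among the 2716 genes called by edgeR.

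The main enzymes on the way from cholesterol to corticosterone were higher. Of 18 steroid synthesis genes tested, 9 were higher and 4 lower, with a median log2 difference of 0.18, against -0.001 over all genes tested. Star, which carries cholesterol to the inner mitochondrial membrane, was at 2724 and 3036 CPM in Cyp11b1-high cells (library 1 and library 2, the order kept below) and at 2396 and 2322 CPM in the low class, a difference of 0.24 ± 0.05 (edgeR adjusted p = 0.0039). Cyp11a1, the side-chain cleavage enzyme, was at 4139 and 4567 CPM, against 3039 and 3165 CPM, and rose by 0.44 ± 0.04. Hsd3b1, which turns pregnenolone into progesterone, was at 6220 and 5599 CPM, against 4122 and 3241 CPM, a difference of 0.64 ± 0.06. Cyp21a1, the 21-hydroxylase that acts just before Cyp11b1, was at 6393 and 7057 CPM, against 4356 and 3990 CPM, also 0.64 ± 0.06 (edgeR adjusted p = 4.4e-06). For each of these 4 genes both libraries of Cyp11b1-high cells lay above both libraries of low-class cells. The share of all tested genes with such a separation is not given here.

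The 4 lower steroid genes included partners and a paralog. Fdx1, the ferredoxin that passes electrons to Cyp11a1 and Cyp11b1, was at 1938 and 1373 CPM in Cyp11b1-high cells and at 2325 and 1888 CPM in the low class (-0.41 ± 0.12), a call that DESeq2 ended. Por, the reductase that serves Cyp21a1, was at 154 and 115 CPM, against 179 and 141 CPM (-0.30 ± 0.05). Hsd3b6, the isoform known from mouse glomerulosa cells, was at 252 and 160 CPM, against 315 and 251 CPM (-0.50 ± 0.09). Fdxr, the ferredoxin reductase, was at 1348 and 1368 CPM, against 1257 and 1133 CPM, and was not called (0.14 ± 0.05, edgeR adjusted p = 0.068).

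All 5 fasciculata markers that the gates had not used were called higher, with a median of 1.33. For none of the 5 did the levels overlap between the classes, and the share of all tested genes without overlap is not given here. Hhex encodes a homeobox transcription factor of the inner cortex. It lies on chromosome 19 at 37434810 to 37440731 of mm10 (GENCODE annotation). Hhex was at 94.7 and 137 CPM in Cyp11b1-high cells, against 17.3 and 16.6 CPM in the low class (2.65 ± 0.12, edgeR adjusted p = 3.6e-09). Abca1, the exporter that hands cholesterol to apolipoprotein A-I and a target of the liver X receptors (LXR), lies on the minus strand of chromosome 4 at 53030787 to 53159895. Its level was 78.6 and 138.5 CPM, against 32.3 and 49.0 CPM (1.33 ± 0.09). After thinning to 5000 UMIs, Hhex was detected in 25.9% and 33.1% of Cyp11b1-high cells, against 7.22% and 6.69% of low-class cells, and Abca1 in 29.2% and 41.6%, against 13.4% and 19.5%. Before thinning the Hhex shares were 53.5% and 58.4%, against 22.8% and 17.0%. Leukocytes, some of which express both genes, gave 30.6% and 26.7% for Hhex and 12.2% and 6.67% for Abca1.

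Akr1b7, an aldose reductase-like protein that detoxifies by-products of steroidogenesis and responds to ACTH, was at 1102 and 1385 CPM in Cyp11b1-high cells, against 916 and 713 CPM in the low class. The difference was 0.57 ± 0.12 (edgeR adjusted p = 0.0039) and was not called by DESeq2. Mrap, the accessory protein that brings the ACTH receptor to the surface, was at 138 and 148 CPM, against 105 and 87.5 CPM (0.50 ± 0.08). The receptor itself, Mc2r, was at 411 and 368 CPM, against 348 and 325 CPM (0.16 ± 0.04), a call that was lost with DESeq2 and with thinned cells.

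Abcb1b, a multidrug exporter of the P-glycoprotein family, was at 97.6 and 169 CPM in Cyp11b1-high cells, against 22.8 and 23.1 CPM in the low class (2.39 ± 0.15). Its UMIs were concentrated: 10 cells held 66.2% of them in library 1 and 75.6% in library 2, and without those cells its level was 33.6 and 43.3 CPM. Hhex and Abca1 were spread more widely, with 18.8% and 20.1% of Hhex UMIs and 11.2% and 22.3% of Abca1 UMIs in the 10 highest cells. Detection of Abcb1b after thinning was 17.3% and 21.0% of Cyp11b1-high cells, against 10.6% and 10.8% of the low class and 12.2% and 6.67% of leukocytes.

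**Figure D2:**
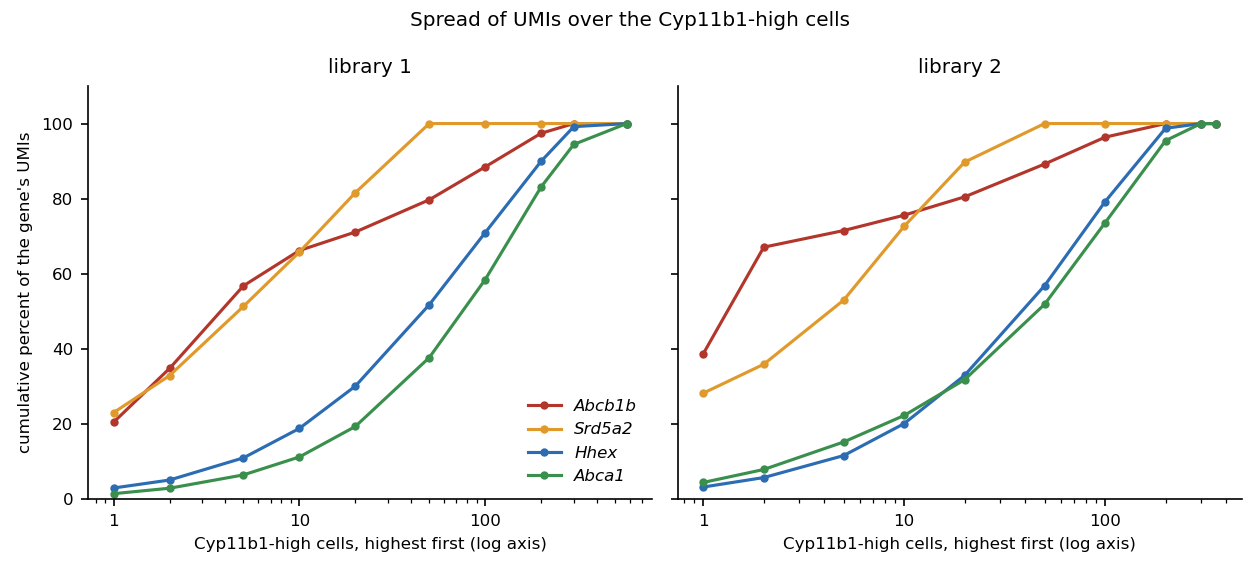
Cumulative percent of a gene's UMIs (vertical axis) over Cyp11b1-high cells ordered from the cell with most UMIs of that gene (horizontal log axis), for library 1 on the left and library 2 on the right. The 10 highest cells hold 66.2% and 75.6% of Abcb1b UMIs and 65.8% and 72.7% of Srd5a2 UMIs, against 18.8% and 20.1% for Hhex.

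The bases before the start sites of the 4 fasciculata markers with a RefSeq promoter entry are shown because these genes were higher together. Each is on GRCm38.p6, the assembly named mm10, and covers 250 to 51 bases before the listed start, read in the direction of the gene. Capitals mark AAGGTCA, a motif that SF1 (Nr5a1) is known to bind, and CCAAT, on either strand. The windows are chr19:37434591-37434790 on the plus strand for Hhex, chr4:53159946-53160145 on the minus strand for Abca1, chr5:8797897-8798096 on the plus strand for Abcb1b and chr6:34412112-34412311 on the plus strand for Akr1b7.
Hhex: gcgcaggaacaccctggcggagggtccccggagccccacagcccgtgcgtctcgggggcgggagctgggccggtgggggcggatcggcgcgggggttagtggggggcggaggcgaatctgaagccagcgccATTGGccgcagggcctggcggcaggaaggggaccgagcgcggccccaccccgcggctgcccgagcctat
Abca1: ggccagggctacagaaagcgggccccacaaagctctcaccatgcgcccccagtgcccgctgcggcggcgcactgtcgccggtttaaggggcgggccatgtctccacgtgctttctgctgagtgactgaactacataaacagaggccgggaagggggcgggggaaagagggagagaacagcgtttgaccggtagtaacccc
Abcb1b: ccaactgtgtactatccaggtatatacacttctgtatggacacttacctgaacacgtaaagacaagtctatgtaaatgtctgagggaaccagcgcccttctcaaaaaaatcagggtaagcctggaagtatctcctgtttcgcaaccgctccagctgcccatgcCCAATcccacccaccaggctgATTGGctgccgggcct
Akr1b7: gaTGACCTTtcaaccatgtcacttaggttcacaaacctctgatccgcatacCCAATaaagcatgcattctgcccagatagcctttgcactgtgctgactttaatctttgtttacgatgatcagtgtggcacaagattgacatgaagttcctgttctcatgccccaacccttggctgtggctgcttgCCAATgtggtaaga
AAGGTCA occurred in Akr1b7, its first base 248 bases before the start, and in 3.36% of 32851 mouse promoter windows of the same 200 bases. CCAAT occurred in Hhex at 119 bases, in Abcb1b at 87 and 66 bases and in Akr1b7 at 199 and 64 bases before the start, and in 28.4% of all windows. The Abca1 window held neither set of letters.

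Among genes of at least 20 CPM in the higher class, the limit for ranking by size throughout, the largest differences included genes outside steroid synthesis. Mmd2, a membrane protein of the progestin and adipoQ receptor family, was at 48.4 and 71.3 CPM in Cyp11b1-high cells, against 5.89 and 5.49 CPM in the low class (3.22 ± 0.13, edgeR adjusted p = 3.2e-09). Acsbg1, an acyl-CoA synthetase that activates long-chain fatty acids, was at 67.1 and 125 CPM, against 9.59 and 14.7 CPM (2.88 ± 0.11). Cited1, a transcriptional coregulator, was at 62.3 and 68.6 CPM, against 19.2 and 12.7 CPM (1.92 ± 0.15). All 3 were spread over many cells, since Mmd2 had a UMI in 34.4% and 34.9% of Cyp11b1-high cells, Acsbg1 in 39.8% and 45.0% and Cited1 in 47.9% and 38.3%.

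Next in size were Slc25a30, a mitochondrial carrier, at 22.4 and 40.2 CPM, against 7.20 and 8.28 CPM in the low class, and Tmem52 at 54.5 and 75.1 CPM, against 18.3 and 14.6 CPM. C4b, a complement component, was at 106 and 144 CPM, against 35.8 and 35.4 CPM (1.72 ± 0.09). Parm1 and the secreted protein gene Scube3 both differed by 1.64, with SEs of 0.15 and 0.16. For each of these 5 genes the libraries of the classes did not overlap. Since they were picked by size among calls of the same direction in both libraries, this adds no separate support.

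**Figure D3:**
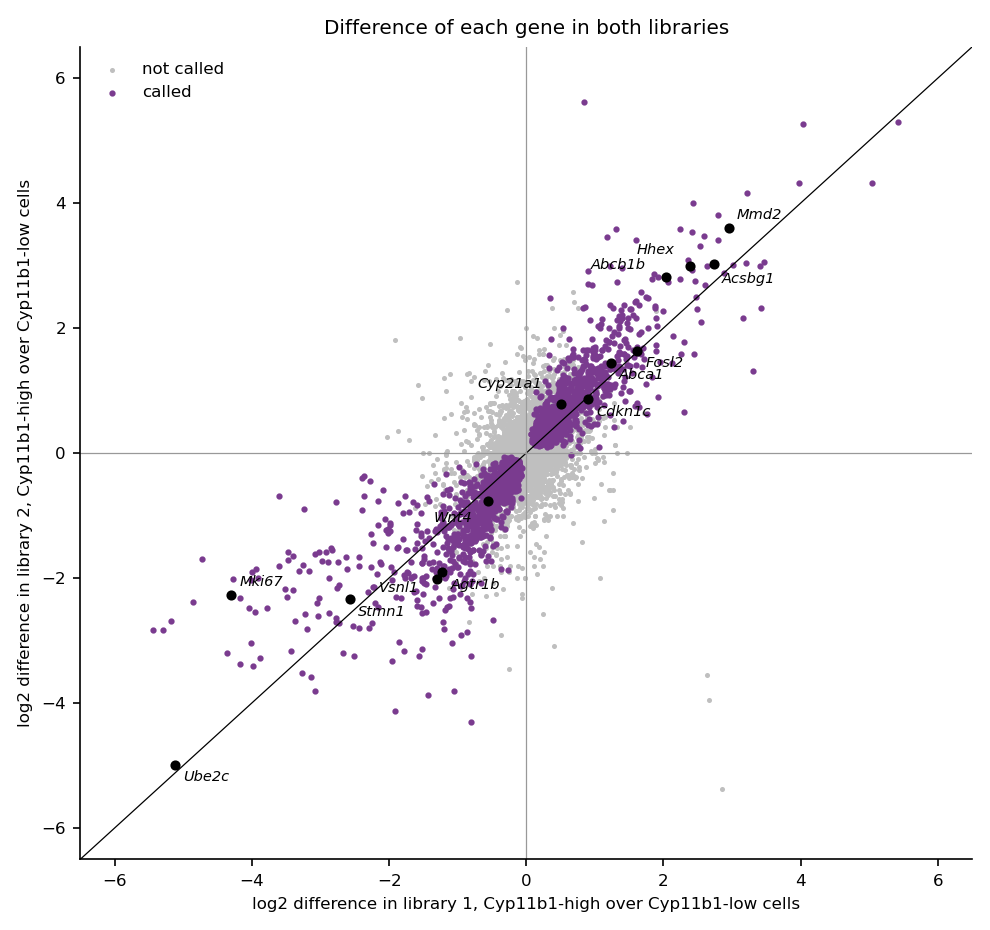
Log2 difference between Cyp11b1-high and Cyp11b1-low cells of each gene in library 1 (horizontal axis) and library 2 (vertical axis), with called genes in purple, the others in grey and 14 named genes in black. The diagonal line marks equal differences in both libraries, and 1 gene lies outside the axes at 6.5. Mmd2, Acsbg1 and Hhex are higher in Cyp11b1-high cells in both libraries. Ube2c and Mki67 are lower in both, Mki67 less so in library 2 than in library 1.

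Among transcription factors and nuclear receptors 10 of 37 were higher and 6 lower, with a median of 0.08. Beside Hhex, Nr0b1 (DAX1, a repressor of SF1) was at 24.8 and 33.0 CPM in Cyp11b1-high cells, against 17.9 and 17.1 CPM in the low class (0.61 ± 0.12). Nr5a1, which encodes SF1, was at 271 and 230 CPM, against 266 and 251 CPM, and was not called (-0.09 ± 0.06, edgeR adjusted p = 0.36). Lmo2, a LIM-domain cofactor, was the most reduced of the list at 14.2 and 19.2 CPM, against 43.0 and 73.3 CPM (-1.79 ± 0.09). Thrb, the thyroid hormone receptor β known from the X-zone of the mouse adrenal, was at 14.5 and 21.8 CPM, against 9.16 and 11.7 CPM (0.72 ± 0.14).

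Cholesterol handling differed by step. Of 17 genes of uptake and storage 6 were higher and 2 lower, with a median of 0.02. Scarb1, the receptor that takes cholesteryl esters from HDL, was at 215 and 333.5 CPM in Cyp11b1-high cells, against 178 and 210 CPM in the low class (0.41 ± 0.08), and Lrp1 at 60.6 and 64.0 CPM, against 42.6 and 39.8 CPM (0.53 ± 0.07). Of 13 LXR target and efflux genes 8 were higher and 0 lower, with Abca1 ahead of the desaturase Scd2 (337 and 476.5 CPM, against 237 and 309 CPM, 0.52 ± 0.05). Of 24 sterol synthesis genes 0 were higher and 12 lower, with a median of -0.32. Cyp51, the lanosterol demethylase, was at 19.2 and 31.4 CPM, against 29.7 and 57.6 CPM (-0.79 ± 0.09), and Sqle, squalene epoxidase, differed by -0.77 ± 0.14.

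In the ACTH and cAMP pathway 7 of 28 genes were higher and 5 lower, with a median of -0.02. Pde8b, a cAMP phosphodiesterase of fasciculata cells, was at 22.4 and 31.0 CPM in Cyp11b1-high cells, against 14.4 and 17.9 CPM in the low class (0.65 ± 0.11). Pde10a was at 37.7 and 29.7 CPM, against 47.1 and 62.3 CPM (-0.63 ± 0.19), a call that DESeq2 ended.

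WNT signalling genes were lower more often than higher, 15 against 3 of 31 tested, with a median of -0.23. Wnt4, the main WNT ligand of the outer mouse cortex, was at 1717 and 1341 CPM in Cyp11b1-high cells, against 2440 and 2210 CPM in the low class (-0.66 ± 0.05, edgeR adjusted p = 1.4e-06). The feedback inhibitors Nkd1 and Axin2 fell as well: Nkd1 was at 117 and 84.3 CPM, against 197 and 211 CPM (-1.02 ± 0.10), and Axin2 at 93.9 and 94.3 CPM, against 119 and 137 CPM (-0.48 ± 0.07). Lef1, a nuclear partner of β-catenin, differed by -0.59 ± 0.07. Another ligand went the other way, since Wnt5a was at 45.8 and 49.0 CPM, against 24.1 and 21.2 CPM (0.99 ± 0.10). Rspo3, an R-spondin known mainly from the capsule, was lower too (-0.89 ± 0.14).

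The hedgehog and FGF list gave 3 higher and 6 lower genes of 20. Shh, the hedgehog ligand of outer cortical cells, was at 276 and 384 CPM in Cyp11b1-high cells, against 280 and 316 CPM in the low class, and was not called (0.08 ± 0.08, edgeR adjusted p = 0.57). Spry1, a feedback inhibitor of FGF signalling, was at 32.1 and 37.5 CPM, against 16.5 and 20.2 CPM (0.88 ± 0.10), and the receptor Fgfr1 differed by 0.55 ± 0.07. The other glomerulosa markers were lower: 7 of 8 tested were called, with a median of -0.81, and Shh was the exception. Dab2, an endocytic adaptor, was at 1004 and 1030 CPM, against 1458 and 2140 CPM (-0.83 ± 0.10). Vsnl1, a calcium sensor, was at 195 and 146 CPM, against 464 and 575 CPM (-1.60 ± 0.13), and was detected after thinning in 41.4% and 39.0% of Cyp11b1-high cells, against 76.4% and 78.2% of low-class cells.

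Of the angiotensin, potassium and calcium genes, 15 of 35 were lower and 5 higher, with a median of -0.10. Agtr1b, an angiotensin II receptor of rodent adrenals, was at 22.0 and 20.5 CPM in Cyp11b1-high cells, against 49.9 and 75.2 CPM in the low class (-1.49 ± 0.12). The potassium channel gene Kcnk9 was at 263 and 267 CPM, against 387 and 516 CPM (-0.78 ± 0.10), while Kcnk1 was at 81.5 and 105 CPM, against 57.7 and 56.4 CPM (0.62 ± 0.08). 1500015O10Rik, the gene of the secreted peptide precursor augurin, was at 4038 and 1340 CPM, against 10001 and 6858 CPM (-1.84 ± 0.18).

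Nearly all cell cycle genes were lower, 26 of 29, with a median of -1.42. Ube2c, a ubiquitin-conjugating enzyme of mitosis, was at 0.349 and 0.766 CPM in Cyp11b1-high cells, 4 UMIs in each library, against 17.2 and 29.3 CPM in the low class (-5.47 ± 0.51). Mki67, the proliferation antigen Ki-67, had UMIs in 6 cells of library 1 and 4 of library 2, at 1.40 and 11.3 CPM, against 29.7 and 53.4 CPM (-3.09 ± 0.25). Top2a, the topoisomerase of replicating cells, differed by -2.89 ± 0.26 and Stmn1, a microtubule regulator, by -2.49 ± 0.11. Birc5 (-3.63 ± 0.36), Prc1 (-4.03 ± 0.52), Cenpa (-3.04 ± 0.40) and Cdc20 (-2.52 ± 0.26) also fell, and Cenpf (-2.88 ± 0.47) did so in a call that DESeq2 ended. The exception was the inhibitor Cdkn1c (p57), at 287 and 309 CPM, against 148 and 164 CPM (0.89 ± 0.05, edgeR adjusted p = 7.3e-08).

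The early response list was mixed, with 6 of 18 genes higher and 4 lower. Fosl2, an AP-1 subunit, was at 55.2 and 86.2 CPM in Cyp11b1-high cells, against 17.3 and 26.7 CPM in the low class (1.63 ± 0.09), and Jun at 333 and 582 CPM, against 196 and 348 CPM (0.70 ± 0.06). Klf2 was at 22.9 and 18.0 CPM, against 40.1 and 38.8 CPM (-0.95 ± 0.11). Outside that list, the chemokine gene Cxcl10 had 3 UMIs in library 1 and 34 in library 2. Its level was 0.262 and 6.51 CPM, against 2.87 and 38.2 CPM (-2.80 ± 0.38), and DESeq2 did not call it.

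The metallothionein genes Mt2 and Mt1 and 9 chaperone genes were higher. Of 28 antioxidant, glutathione and metallothionein genes 12 were higher and 3 lower, and the largest rises at 20 CPM or more were of Mt2 (50.7 and 20.5 CPM in Cyp11b1-high cells, against 17.6 and 4.56 CPM in the low class, 1.60 ± 0.13) and Mt1 (408.5 and 198 CPM, against 226.5 and 96.6 CPM, 0.87 ± 0.09). The metallothioneins were higher in library 1 than in library 2 in both classes. Of 20 chaperone genes 9 were higher and 0 lower, with a median of 0.17, among them Hspa5, the chaperone of the endoplasmic reticulum (0.41 ± 0.04). Of 20 interferon and antigen presentation genes 8 were higher and 1 lower, with a median of 0.42, among them B2m (0.66 ± 0.05), the light chain of MHC class I. Summed leukocyte and macrophage markers were also above the low class, as given above. Without Cyp11b1-high cells of 3 or more leukocyte UMIs the B2m difference was again 0.66. That filter removed only 3 and 1 cells, did not use the macrophage list and left free RNA in place. The part of leukocyte RNA in these differences was not tested. Of 13 membrane transporters and exporters 9 were higher and 1 was lower, the lactate transporter gene Slc16a1 at 24.0 and 34.7 CPM, against 38.5 and 70.3 CPM (-0.88 ± 0.09).

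The ribosomal protein and mitochondrial-encoded genes that were called were all lower, by small amounts. Of 40 ribosomal protein genes 21 were lower and 0 higher with a median of -0.12, and of 13 mitochondrial-encoded genes 6 were lower and 0 higher with a median of -0.14. Of 37 nuclear genes of oxidative phosphorylation 8 were lower and 1 higher, with a median of -0.07. The median share of mitochondrial UMIs per cell was 5.2% and 4.2% in Cyp11b1-high cells, against 5.5% and 4.8% in the low class. Malat1, one of the gate genes, had medians of 26739 and 41720 CPM, against 23517 and 28277 CPM, and the nuclear RNA Neat1 was at 26.7 and 69.5 CPM, against 13.5 and 42.9 CPM (0.79 ± 0.09). The part of nuclear RNA content in the other differences was not tested.

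**Figure D4:**
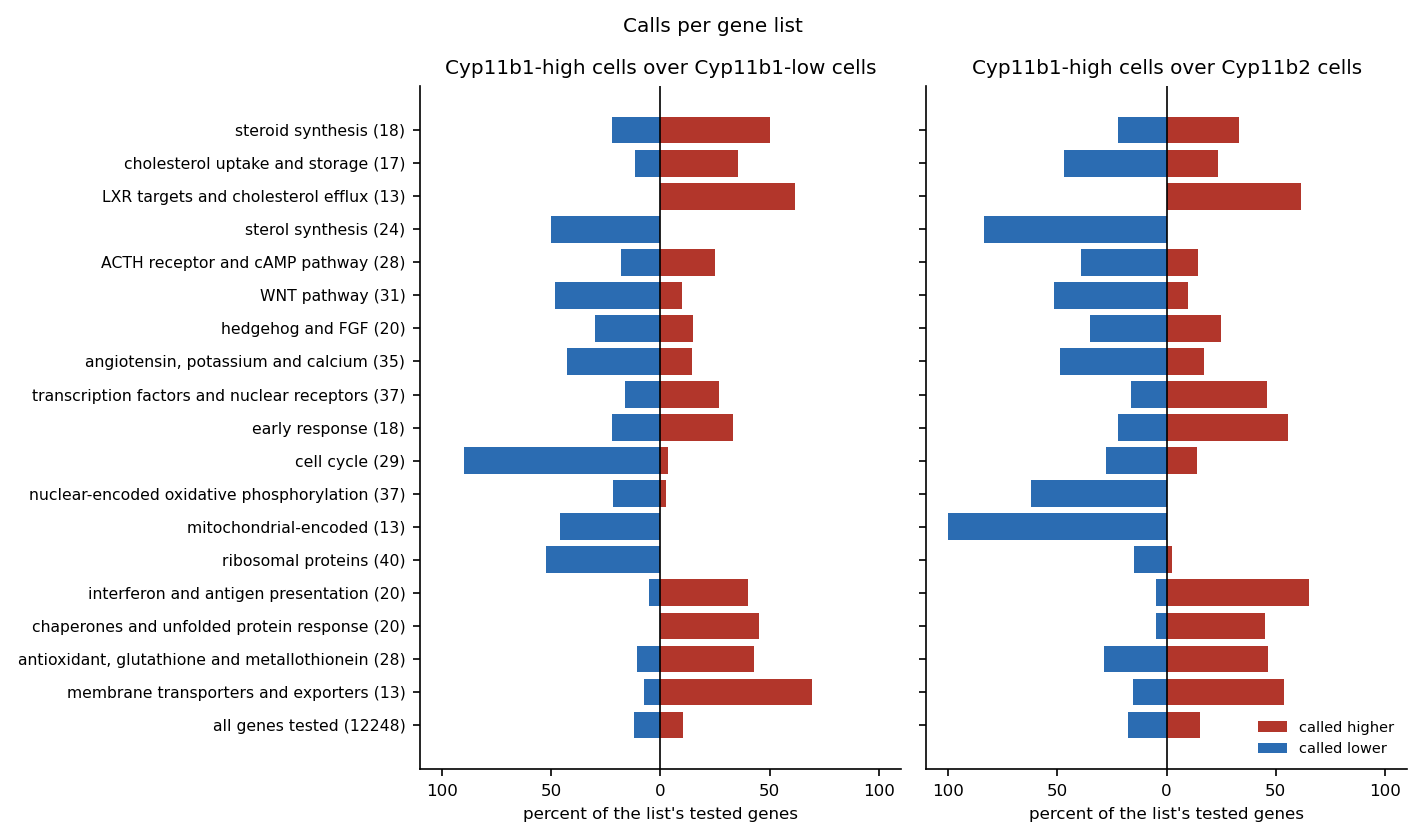
Percent of each gene list's tested genes called higher (red, to the right) or lower (blue, to the left) in Cyp11b1-high cells than in Cyp11b1-low cells (left panel) and than in Cyp11b2 cells (right panel), with the number tested in parentheses and all genes in the bottom row. Cell cycle genes were lower in 26 of 29 against the low class, and sterol synthesis genes were lower in 20 of 24 against Cyp11b2 cells.

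Cells with intermediate Cyp11b1 (100 to under 500 CPM, 422 in library 1 and 139 in library 2, the other gates the same) lay between the low class and the Cyp11b1-high cells for Hhex, Mmd2, Acsbg1 and Vsnl1 in both libraries. Not every gene was in between. In intermediate cells Star and Abcb1b were slightly below the low class in both libraries, and Akr1b7 was below it in library 2. Of 12248 genes 388 were higher (3.17%) and 454 lower (3.71%) in Cyp11b1-high than in intermediate cells. With DESeq2 423 genes were called, with thinned cells 406, with Cyp11b1-high cells of 1000 CPM or more 1679, and without the library term 0, with 682 at an unadjusted p under 0.05. Hhex was at 94.7 and 137 CPM in Cyp11b1-high cells, against 35.5 and 33.1 CPM in intermediate cells (1.63 ± 0.13), Mmd2 at 48.4 and 71.3 CPM, against 10.1 and 11.5 CPM (2.39 ± 0.16), and Acsbg1 differed by 1.95 ± 0.13. Abcb1b, again with most UMIs in few cells, was at 21.7 and 21.2 CPM in intermediate cells, and Abca1 at 41.6 and 85.6 CPM (0.83 ± 0.11).

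All 5 unused fasciculata markers (Akr1b7 not with DESeq2) and 8 of 18 steroid synthesis genes were higher than in intermediate cells, while 7 of 8 glomerulosa markers and 2 of the steroid genes were lower. Hsd3b1 differed by 0.47 ± 0.06, Cyp21a1 by 0.46 ± 0.06, Star by 0.30 ± 0.05 and Cyp11a1 by 0.27 ± 0.04. Of 29 cell cycle genes 16 were lower and 1 higher. Stmn1 was at 24.6 and 33.3 CPM in Cyp11b1-high cells, against 92.5 and 77.3 CPM in intermediate cells (-1.70 ± 0.12). Gulo, which makes the last step of vitamin C synthesis, was at 8.21 and 7.66 CPM, against 28.3 and 16.6 CPM (-1.72 ± 0.29), and Eno3, a glycolytic enolase, differed by -1.47 ± 0.22. Mc2r (0.05 ± 0.05) and Shh (0.07 ± 0.09) were not called, and 0 of the 40 ribosomal and 13 mitochondrial-encoded genes were called in either direction. The haemoglobin genes Hba-a2, Hbb-bs and Hba-a1 had the largest positive differences at 20 CPM or more, but their UMIs sat in few cells, and without cells high in haemoglobin the Hbb-bs difference was -0.25, not called.

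Against cells with Cyp11b2 at 100 CPM or more and Cyp11b1 under 500 CPM (748 in library 1 and 306 in library 2, the other gates the same), a gate that selects glomerulosa-type cells, the differences were broader. Of 12248 genes 1891 were higher (15.4%) and 2136 lower (17.4%), with 2489 called by DESeq2, 2169 with thinned cells and 560 without the library term. Mmd2 was at 0.718 and 0.566 CPM in Cyp11b2 cells, so the Cyp11b1-high level of 48.4 and 71.3 CPM was higher by 6.23 ± 0.23. Acsbg1 (4.34 ± 0.15), Hhex (3.03 ± 0.14), Cited1 (2.98 ± 0.19), Abca1 (2.85 ± 0.12) and Scube3 (2.68 ± 0.20) followed among genes of at least 20 CPM. Below that limit Srd5a2, at 13.3 and 22.4 CPM against 0.0598 and 0.189 CPM in Cyp11b2 cells, differed by more. Abca1 was at 11.7 and 14.0 CPM in Cyp11b2 cells and Hhex at 12.8 and 12.1 CPM, in each case below the low class for both libraries.

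The steroid genes did not all follow Cyp11b1 in that comparison. Star was at 2724 and 3036 CPM in Cyp11b1-high cells, against 3152 and 3100 CPM in Cyp11b2 cells (-0.22 ± 0.05), a call that ended when cells below 1000 CPM of Cyp11b1 were left out. Fdx1 was at 1938 and 1373 CPM, against 5239 and 5410 CPM (-1.82 ± 0.12, edgeR adjusted p = 5e-08). Hsd3b1 was higher by 0.70 ± 0.06, and Cyp21a1 and Cyp11a1 both by 0.37, with SEs of 0.06 and 0.04. Akr1b7 at 1418 and 1161 CPM in Cyp11b2 cells (-0.14 ± 0.12) and Mrap at 136 and 122 CPM (0.03 ± 0.08) were not called, so 3 of the 5 fasciculata markers were higher and 0 lower. Of 18 steroid synthesis genes 6 were higher and 4 lower.

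Most genes of sterol synthesis and respiration were lower. Of 24 sterol synthesis genes 20 were lower and 0 higher with a median of -1.005, against 0.003 over all genes. Cyp51 was at 19.2 and 31.4 CPM in Cyp11b1-high cells, against 62.5 and 123 CPM in Cyp11b2 cells (-1.92 ± 0.09), and Idi1, an isomerase of the same pathway, differed by -1.73 ± 0.11. Scarb1 (-0.52 ± 0.08) was also lower, and in uptake and storage as a whole 8 of 17 were lower and 4 higher. All 13 mitochondrial-encoded genes and 23 of 37 nuclear genes of oxidative phosphorylation were lower, and mt-Cytb was at 4505 and 3612 CPM, against 7318 and 7383 CPM (-0.97 ± 0.06). The median share of mitochondrial UMIs was 5.2% and 4.2% in Cyp11b1-high cells, against 6.9% and 7.0% in Cyp11b2 cells. Interferon and antigen presentation genes were higher in 13 of 20 and lower in 1.

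Of 29 cell cycle genes 8 were lower and 4 higher than in Cyp11b2 cells, with a median of -0.38, and 17 were not called. At 20 CPM or more, the genes most reduced against Cyp11b2 cells were Eno3 (52.9 and 18.6 CPM in Cyp11b1-high cells, against 322 and 336 CPM, -3.19 ± 0.19), the glycine transporter gene Slc6a5 (3.41 and 3.45 CPM, against 20.8 and 41.3 CPM, -3.09 ± 0.22) and Gulo (8.21 and 7.66 CPM, against 49.3 and 86.3 CPM, -3.04 ± 0.23). Scg5, a secretory granule chaperone, was at 13.7 and 9.58 CPM, against 84.9 and 91.8 CPM (-2.94 ± 0.12), and Ppp2r2b and Tmem158 fell by 2.78 and 2.62 on the log2 scale. Of the 8 glomerulosa markers 7 were lower and 1, Shh, was higher (276 and 384 CPM, against 239 and 226 CPM, 0.35 ± 0.09). Vsnl1 fell by 2.36 ± 0.13 and Agtr1b fell by 2.56 ± 0.12 on the log2 scale, with Agtr1b at 99.5 and 155 CPM in Cyp11b2 cells. WNT genes were again lower more often than higher, 16 against 3 of 31. The intermediate, low and Cyp11b2 comparisons share the same Cyp11b1-high cells.

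Against all other passing cells of each library, the comparison nearest to the choice of the cells, 1358 of 12770 genes were higher (10.6%) and 1802 lower (14.1%). DESeq2 called 1065 of them, 328 higher and 737 lower, thinned cells gave 1696 calls, and without the library term 3 were left. This fit had 1 residual degree of freedom among its 4 sums. Mmd2 (2.88 ± 0.09), Acsbg1 (2.37 ± 0.07), Hhex (2.08 ± 0.07), Cited1 (1.79 ± 0.10), Tmem52 (1.75 ± 0.12) and Scube3 (1.75 ± 0.13) were the highest at 20 CPM or more, while below it Vegfd and Col5a1 differed by 2.45 and 2.44. The genes most reduced at that limit belonged to blood cells, which the other passing cells include: S100a9 and S100a8 of neutrophils fell by 9.30 and 8.94 on the log2 scale, and Lyz2 of myeloid cells by 4.43. All 7 leukocyte and all 7 macrophage markers tested were lower. Abcb1b (0.30 ± 0.13), Akr1b7, Star and Scarb1 were not called in this comparison, and Shh was higher by 0.27 in a call lost with DESeq2 and with the 1000 CPM threshold.

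Within the Cyp11b1-high cells, gene levels were followed over 3 bins of Cyp11b1, 500 to under 1000, 1000 to under 2000 and 2000 CPM or more, holding 232, 229 and 117 cells in library 1 and 99, 103 and 156 in library 2. Of 10566 genes 507 rose with the bin (4.8%) and 522 fell (4.94%), against 369 calls by DESeq2, 361 with thinned cells and 23 without the library term. Median depth was 18880, 17350 and 18759 UMIs in library 1 and 14685, 14428 and 17045 UMIs in library 2. Median Malat1 also rose in library 1, with 22077, 27600 and 37798 CPM, and was 38480, 43247 and 43046 CPM in library 2, and its part in these trends was not tested.

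All 5 unused fasciculata markers were called as rising with the bin, not all of them at every step. Hhex was at 55.1, 90.2 and 191.5 CPM in library 1 and 57.4, 107 and 198 CPM in library 2, a slope of 0.90 log2 units per bin. Mmd2 was at 22.4, 45.4 and 112 CPM and at 20.6, 44.8 and 114 CPM (1.20 per bin). Both genes thus had nearly the same level in the 2 libraries at a given Cyp11b1, although the libraries differed in the number of cells per bin. Abca1 was less regular, at 61.3, 79.3 and 116 CPM in library 1 and 138, 110.5 and 154 CPM in library 2 (0.29 per bin), and its call was lost with DESeq2 and with thinned cells. Akr1b7 was flat between the lower bins and rose in the top one, with 948, 917 and 1795 CPM and 742, 819 and 2054 CPM (0.60 per bin), a call that DESeq2 ended. Abcb1b, at 40.3, 152 and 123 CPM in library 1 and 31.6, 45.5 and 313 CPM in library 2 (1.20 per bin), did not rise at every step, and 2 cells held 67.1% of its UMIs in library 2.

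Of 18 steroid synthesis genes 9 rose and 1 fell with the bin. Cyp21a1 was at 5566, 6305 and 8405 CPM in library 1 and 5079, 6212 and 8615 CPM in library 2 (0.34 per bin), and Hsd3b1 at 5379, 6349 and 7852 CPM and 4241, 5012 and 6674 CPM (0.30 per bin). Star was at 2514, 2589 and 3448 CPM and 2079, 2630 and 3789 CPM (0.33 per bin). Scarb1, at 175, 189 and 356 CPM and 207, 227 and 463 CPM, gained mainly in the top bin, as Akr1b7 did. Mc2r stayed between 358 and 428 CPM in all 6 bins and was not called (-0.04 per bin), and ribosomal protein genes gave 0 calls of 40.

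Glomerulosa markers fell in 6 of 8 and WNT genes in 10 of 28, with 1 WNT gene rising. Wnt4 was at 2048, 1695 and 1020 CPM in library 1 and 1774, 1608 and 954 CPM in library 2 (-0.47 per bin). Vsnl1 was at 278, 170 and 54.6 CPM and 259, 167 and 72.7 CPM (-0.99 per bin), and Dab2 at 1263, 954 and 523.5 CPM and 1504, 1151 and 701 CPM (-0.59 per bin). Shh was at 292, 286 and 220 CPM and 374, 412 and 374 CPM and was not called (-0.10 per bin, edgeR adjusted p = 0.25). Axin2 fell by 0.39 and Lef1 by 0.51 per bin. The steepest declines at 20 CPM or more were of Eno3, at 88.0, 34.8 and 8.95 CPM and 51.5, 10.1 and 5.25 CPM (-1.58 per bin), and of Stmn1, which in library 2 was at 109 CPM in the lowest bin and at 10.8 and 4.44 CPM in the others, with 75.9% and 86.2% of its UMIs in 10 cells of each library. Lrrc55, the fatty acid-binding protein gene Fabp5, Fbln1 and Rspo3 fell by 1.36, 1.31, 1.24 and 1.07 per bin, and 1500015O10Rik, at 5968, 3327 and 1072 CPM and 2634, 1288 and 659 CPM, by 1.11.

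**Figure D5:**
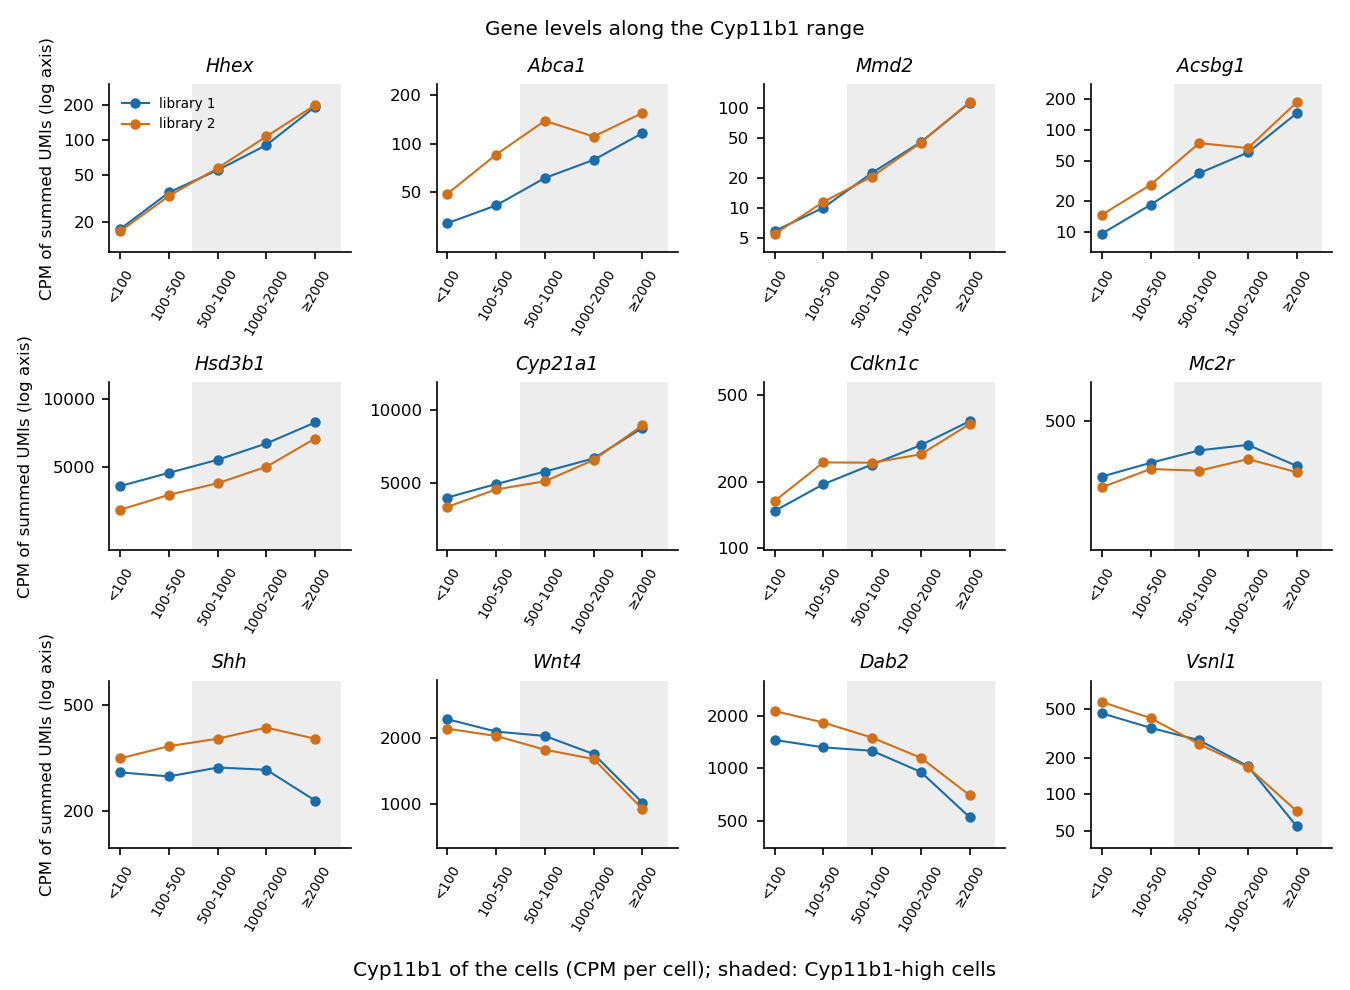
Level of 12 genes in CPM of summed UMIs (vertical log axis, its range set for each gene) along 5 classes of cells ordered by Cyp11b1 per cell (horizontal axis), with library 1 in blue and library 2 in orange; the Cyp11b1-high bins are shaded. Hhex and Mmd2 rise at every step in both libraries, Wnt4 and Vsnl1 fall at every step, while Mc2r stays between 358 and 428 CPM across the shaded bins.

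At the top of the range, a minority of cells held the inner-cortex marker Srd5a2. This steroid 5α-reductase gene rose the most with the bin, at 2.81, 10.4 and 42.1 CPM in library 1 and 1.47, 8.67 and 41.6 CPM in library 2 (2.05 per bin). It had a UMI in 8.3% and 8.94% of Cyp11b1-high cells, and 10 cells held 65.8% and 72.7% of its UMIs. Against the low class, at 0.142 and 0.372 CPM, Srd5a2 was at 13.3 and 22.4 CPM. Myof and Col5a1 rose by 1.56 and 1.43 per bin, with Col5a1 at 3.01, 5.68 and 23.7 CPM and 5.88, 8.67 and 25.9 CPM.

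The cells above the Aldh1a1 gate that met the Malat1 and NR4A gates, 19 in library 1 and 24 in library 2, were too few for the fit and are set beside the others as levels only. They held Cyp11b1 at 1869 and 2314 CPM, against 2994 and 3639 CPM in the top bin of Cyp11b1-high cells. That bin admits only cells of 2000 CPM or more, while the Aldh1a1 cells could hold any level. The median Aldh1a1 cell held 2278 and 2126 CPM, above the 1132 and 1720 CPM of the median Cyp11b1-high cell. In the Aldh1a1 cells Srd5a2 was at 362 and 573 CPM and Abcb1b at 4838 and 8148 CPM. Cyp21a1 was at 2233 and 467 CPM and Wnt4 at 409 and 34.5 CPM, both below every bin of Cyp11b1-high cells, while Hhex at 251 and 340 CPM was above every bin. The X-zone genes Akr1c18 and Pik3c2g had 0 UMIs in Cyp11b1-high cells of either library, which allows up to 0.262 and 0.575 CPM (3 UMIs of the summed total), and Aldh1a7 had UMIs in 11 and 5 of them.

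The reporter and transgene transcripts were also followed. The eGFP transcript, present after Cre recombination, was at 2185 and 2254 CPM in Cyp11b1-high cells, against 2590 and 2766 CPM in the low class (-0.32 ± 0.05) and 3341 and 3914 CPM in Cyp11b2 cells (-0.81 ± 0.05). It did not follow Cyp11b1 within the group (0.02 per bin, not called). TdTomato, which recombination removes, had 0 UMIs in Cyp11b1-high cells and 2 among all other passing cells. Those other cells include 91 and 74 leukocytes, which are not a steroid-producing lineage. TdTomato was thus nearly undetected in every cell type, and its absence cannot show recombination. Cre itself was at 50.7 and 52.7 CPM, against 44.5 and 55.1 CPM in the low class, and was not called (0.04 ± 0.11).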

How the data were processed

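The authors deposited raw UMI counts for 31057 features in each cell barcode. The submitters' processing notes name Cell Ranger and build mm10, and the file headers give software version 3.1.0. No source used here states the cell-calling step.

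Cells needed at least 1000 UMIs, 500 genes and at most 30% mitochondrial UMIs. Scrublet (scanpy 1.11.5) scored doublets, and the top 0.8% per 1000 barcodes were left out only in an alternative, and free RNA was not subtracted. Comparison classes left out cells with 3 or more leukocyte-marker UMIs. UMIs were summed per class and library and fitted with edgeR 4.0.16 (R 4.3.3, limma 3.58.1, TMM scaling, default low-count filter, library as a block, which pairs the sums because those of a library share its animals and droplet run), with Benjamini-Hochberg adjustment over all genes tested. The fit of 4 classes used 8 sums with 3 residual degrees of freedom, that of the other passing cells 4 sums with 1, and the trend 6 sums with 3. Levels are CPM of the summed UMIs before TMM. The 6 gate genes were not tested. A class needed 20 cells in each library, which the Aldh1a1 cells did not reach. Shares have exact 95% intervals that cover counting error only.

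The cells and gene lists were chosen with earlier results of these data known. Genes are named by size of change (called genes that moved the same way in each library, reached 20 CPM in the higher class and have a proper symbol; the 10 largest in each direction against the low class and 6 elsewhere), the top 2 each way in every list, and a fixed set of names. Por, Fdxr, Kcnk9, Col1a1 and Aldh1a7 were named outside this rule, after their values were seen. Further genes chosen this way are not reported here. On simulated data the fit against the low class called 72 of 96 genes changed 1.5-fold and 86 of 97 changed 2-fold among 12002 genes, with 8 false calls. Those counts had the same spread for every gene and no library effect, unlike the real data, so they do not give the real rate of false calls. DESeq2 1.42.0 and the settings of the closing section were alternatives.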

Additional observations from a re-analysis of the deposited data

How the results depend on the processing

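Counts of called genes fell in every comparison without the library term, with cells thinned to 5000 UMIs and with DESeq2. Without the replicate block, 67 genes were called against the low class, 3 against other passing cells, 0 against intermediate cells (682 at an unadjusted p under 0.05; DESeq2 called 423), 560 against Cyp11b2 cells and 23 in the trend. Thinned cells gave 1455, 1696, 406, 2169 and 361 calls in the same order, and DESeq2 gave 1408, 1065, 423, 2489 and 369. With the threshold at 1000 CPM of Cyp11b1, 1679 genes were called against intermediate cells, and the cells made up 7.07% of library 1 and 12.9% of library 2. Of 234 results for single genes, DESeq2 ended 24 calls, thinning 9 and the fit without the block 164, all with the same direction. RLE size factors, at most 15% mitochondrial UMIs and at least 3 Cyp11b1 UMIs ended none, nor did leaving out Cyp11b1-high cells of 3 or more leukocyte UMIs. With cells high in haemoglobin left out, a setting chosen after the data were seen, Hbb-bs against intermediate cells turned to -0.25. The causes were not tested. The comparison with Aldh1a1 cells was not run, with 19 and 24 cells. Depth limits genes such as Ube2c, with 4 UMIs per library in Cyp11b1-high cells.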
